A study of Mus musculus with 6 samples.

Results

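The genes described here encode the actins, tropomyosins, tropomodulins and nebulin of the thin filament and the alpha-actinins that anchor it at the Z-disc. They were chosen by name as 10 genes (Acta1, Actc1, Tpm1, Tpm2, Tpm3, Actn2, Actn3, Tmod1, Tmod4 and Neb), through every probe set of the array annotated with 1 of these symbols alone. Of the 10, 9 genes had such a probe set, with 18 probe sets among the 22690 of the array, and Neb is not analysed here. The array carried 12393 genes by a lone symbol. Transcript levels had been measured in superficial masseter, a jaw-closing muscle, and in tibialis anterior, a muscle of the lower hind limb, from normal adult female C57Bl/6 mice aged 6 months. Each muscle was represented by 3 samples on 1 short-oligonucleotide array each, and no treatment is named. The series asked which genes differ between masticatory and axial muscle, and its design text describes paired comparisons. Whether each sample came from a mouse of its own is not given, so p-values measure only the spread between samples, some of which may be technical.

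The thin filament is a polymer of actin along which tropomyosin lies end to end, and with troponin it makes contraction depend on calcium. Alpha-actinin crosslinks the barbed ends of actin filaments at the Z-disc, tropomodulin caps the pointed ends, and nebulin runs along the filament. Many of these proteins come as isoforms from different genes. Acta1 is the main actin of adult skeletal muscle and Actc1 that of the heart and of developing skeletal muscle. Tpm3 and Actn3 are typical of slow and of fast fibres respectively.

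Transcripts of Actc1 and Actn3 were lower in the masseter, by 2.95-fold and 1.84-fold. In whole muscle, fewer fibres of a type and less RNA per fibre cannot be told apart. The other 7 measured genes did not pass the test on their brightest probe set, with log2 differences from -0.21 to 0.16. Signals were compared on the log2 scale with limma, the numbers in the sample titles serving as a block. A difference is always masseter minus tibialis anterior on that scale, ± the standard error (SE) of the fit, with n = 3 per muscle. Adjusted p-values are limma's, by the Benjamini-Hochberg method over 13576 probe sets that passed a filter on low signal, and the threshold was 0.05. All 18 member probe sets passed that filter. Of them 2 were past the threshold, both lower in the masseter, and 0 were higher. At an unadjusted p under 0.05 there were 2 lower and 1 higher, where 831 were lower and 941 higher among all 13576 kept. Over all probe sets kept, 1.18% were past the threshold in either direction, 0.619% lower and 0.56% higher. The median difference was -0.04 over the member probe sets and 0.02 over all kept. Groups did not overlap for 3 member probe sets, all lower in the masseter, a share of 16.7% where 8.63% of all kept were lower without overlap. For 0 member probe sets was the masseter higher without overlap, against 9.21% of all kept. The numbered pairs had the same sign in all 3 for 8 of the 18, against 35% of all kept.

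**Figure D1:**
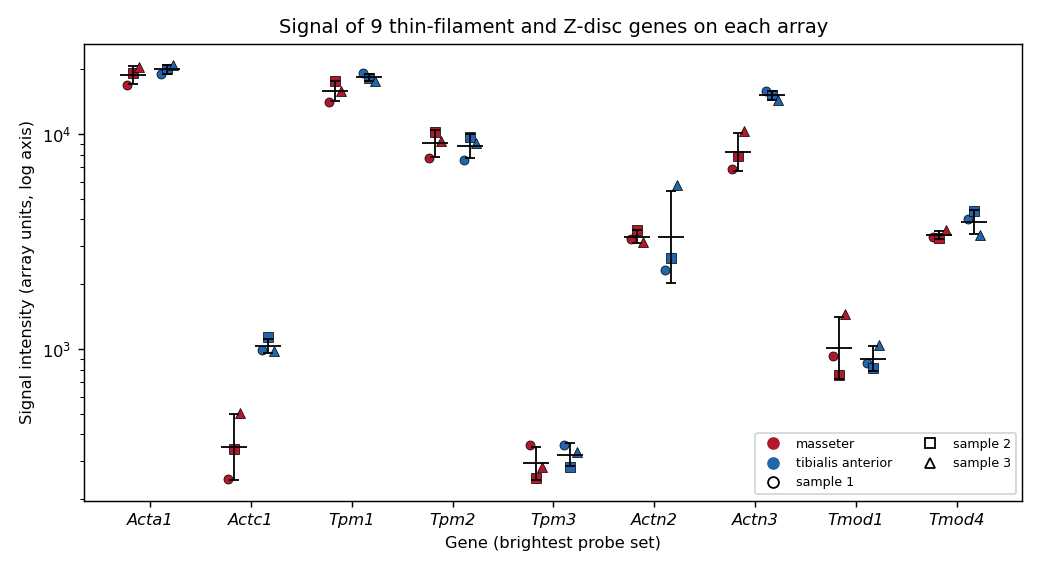
Signal intensity (array units, log axis) of the brightest probe set of each of the 9 genes on each of the 6 arrays, with the mean of the log2 signals and ±1 SD of them (horizontal lines and bars, n = 3). The muscles separate clearly for Actc1 and Actn3, and 1 tibialis anterior sample stands above the other 5 arrays for Actn2.

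The sarcomeric actins are read by 1 probe set each. Acta1, skeletal alpha-actin, had signals of 16872, 19171 and 20498 in masseter 1, 2 and 3 and of 19025, 20005 and 20972 in tibialis anterior 1, 2 and 3. The groups overlapped, and the difference was -0.09 ± 0.10 (adjusted p = 0.786), a ratio of masseter to tibialis anterior of 0.94 with a 95% interval from 0.799 to 1.11. Its sign turned to 0.01 with quantile normalization and to 0.02 when arrays were scaled to genes of the muscle fibre. The highest signal of any probe set lay between 18461 and 22667 on these arrays, so Acta1 was among the brightest probe sets. Differences can be understated at such levels, which was not tested.

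Actc1, cardiac alpha-actin, had signals of 248, 342 and 503 in masseter 1, 2 and 3. In tibialis anterior 1, 2 and 3 they were 992, 1130 and 978. Every masseter sample lay below every tibialis anterior sample, and the masseter samples differed more among themselves, with an SD on the log2 scale of 0.51 against 0.12. The difference was -1.56 ± 0.21 (adjusted p = 0.0136), a 2.95-fold higher level in the tibialis anterior with a 95% interval from 2.12 to 4.11. All 3 numbered pairs had the same sign, at -2.00, -1.72 and -0.96. The call held in 12 of 19 alternatives, with differences from -1.86 to -1.22. It ended with eBayes without an intensity trend (adjusted p = 0.2) and in paired SAM (adjusted p = 0.133). In limma fits without the block it ended when 1 array was left out, for masseter 2, tibialis anterior 1, 2 or 3 (adjusted p = 0.0795, 0.059, 0.0691 and 0.0546).

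To show how the genes of this pair compare before their start sites, the 250 bases upstream of each annotated start are given from RefSeq (GRCm38.p6), 5′ to 3′ on the gene's strand. Capitals mark the CArG box, the motif that serum response factor binds. Acta1 lies at chr8:123894776-123895025 on the minus strand and Actc1 at chr2:114052876-114053125 on the minus strand.
Acta1: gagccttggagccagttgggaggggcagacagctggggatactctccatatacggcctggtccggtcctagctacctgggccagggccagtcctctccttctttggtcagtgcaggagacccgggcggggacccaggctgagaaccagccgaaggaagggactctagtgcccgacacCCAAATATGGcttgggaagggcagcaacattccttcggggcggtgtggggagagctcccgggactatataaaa
Actc1: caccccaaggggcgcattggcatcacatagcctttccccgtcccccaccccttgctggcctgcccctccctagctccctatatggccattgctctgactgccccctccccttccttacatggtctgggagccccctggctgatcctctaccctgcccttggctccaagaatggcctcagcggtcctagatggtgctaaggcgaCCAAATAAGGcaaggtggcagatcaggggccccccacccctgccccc
Each window held 1 CArG box. The general pattern searched for is the same on both strands, although the letters of these 2 boxes are not. The box began 73 bases before the annotated start in Acta1 and 47 in Actc1. Of the 8 members with an entry, these 2 held the motif, and 1.47% of all 32851 upstream windows of this length did. The letters CATTCC, the core of the MCAT element, were searched on both strands and stood in the windows of Acta1, Tpm1 and Tmod1, against 12.6% of all windows. CANNTG, the E-box with N for any base, is likewise a pattern that is the same on both strands. It stood in the windows of Acta1, Tpm1, Tpm2, Tpm3, Actn2 and Tmod4, against 66.2% of all windows. The E-box was absent from the Actc1 window. Such matches describe the letters of these windows only.

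The alpha-actinins also have 1 probe set each. Actn3, the alpha-actinin of fast glycolytic fibres, had signals of 6857, 7887 and 10280 in masseter 1, 2 and 3. In tibialis anterior 1, 2 and 3 they were 15825, 15255 and 14316. Its tibialis anterior signals were among the brightest of the arrays, as with Acta1. The groups did not overlap, and the spread was again wider in the masseter (SD on the log2 scale 0.30 against 0.07). The difference was -0.88 ± 0.15 (adjusted p = 0.0342), a 1.84-fold higher level in the tibialis anterior with a 95% interval from 1.45 to 2.33. The differences within the numbered pairs were -1.21, -0.95 and -0.48. The call held in 9 of 19 alternatives, with differences from -1.08 to -0.71. It ended with eBayes without an intensity trend (adjusted p = 0.292) and in paired SAM (adjusted p = 0.27). Leaving out the second numbered pair also ended it (adjusted p = 0.0697), as did testing with no filter on low signal (adjusted p = 0.138). In limma fits without the block and with 1 array left out, it ended for masseter 1 or 2 (adjusted p = 0.0759 and 0.145) and for tibialis anterior 1, 2 or 3 (adjusted p = 0.107, 0.113 and 0.0971).

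Actn2, the alpha-actinin of all skeletal fibres and of the heart, had signals of 3260, 3584 and 3148 in masseter 1, 2 and 3. In tibialis anterior 1, 2 and 3 they were 2335, 2652 and 5807. Tibialis anterior 3 was the highest of the 6 arrays and the other 2 tibialis anterior samples were the lowest. The difference was 0.01 ± 0.25 (adjusted p = 0.991), and the 95% interval of the masseter to tibialis anterior ratio ran from 0.678 to 1.5. This value rests on tibialis anterior 3. Without that array and without the block, the difference was 0.42 (adjusted p = 0.355), and without tibialis anterior 1 it was -0.24 (adjusted p = 0.826). The numbered pairs differed in sign, at 0.48, 0.43 and -0.88. Tibialis anterior 3 was also the highest array for other Z-disc genes, of which 2 are named after their values were seen. Csrp3, the muscle LIM protein, had 2662, 3502 and 4650 for the masseter samples, against 1261, 900 and 9886 for tibialis anterior 1, 2 and 3 (adjusted p = 0.621). Flnc, filamin C, had 431, 597 and 654 against 586, 352 and 1474 (adjusted p = 0.776).

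**Figure D2:**
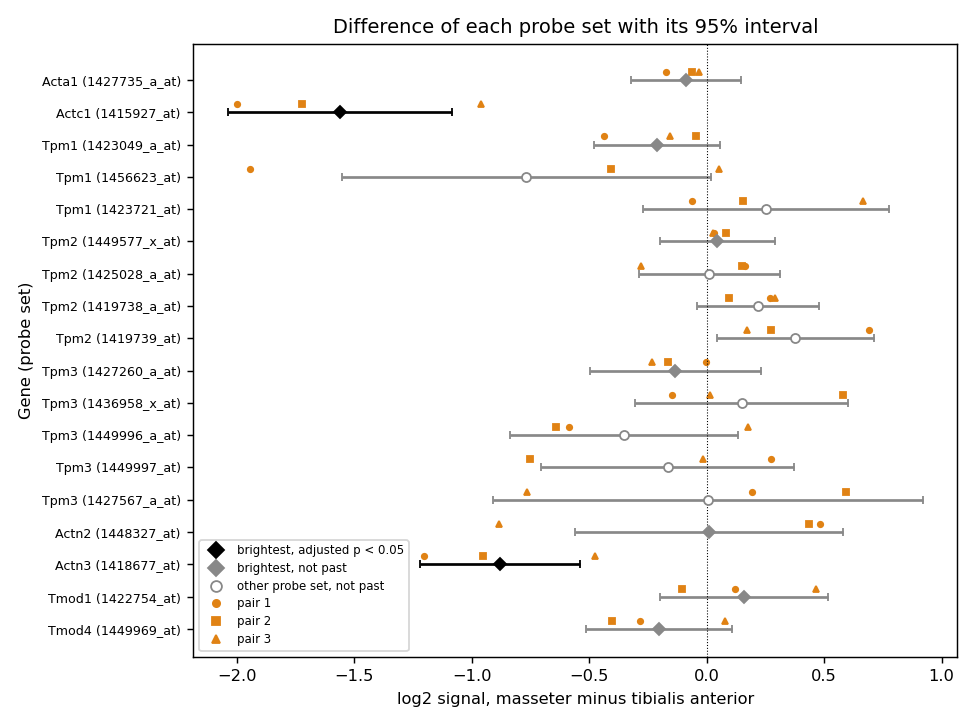
Difference of each of the 18 probe sets on the log2 scale, masseter minus tibialis anterior, with limma's unadjusted 95% interval (bars) and the 3 numbered pairs (orange marks). The 2 filled black diamonds, Actc1 and Actn3, are the probe sets past the threshold, and the intervals of the other probe sets lie near or across 0.

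Tropomyosin is read by 12 probe sets, and none was past the threshold by limma, although 1 of Tpm2 had an unadjusted p under 0.05. Tpm1, which encodes alpha-tropomyosin, the fast-fibre form, had signals of 14151, 17659 and 15898 in masseter 1, 2 and 3 and of 19163, 18213 and 17705 in tibialis anterior 1, 2 and 3 on its brightest probe set. The masseter samples lay just below the tibialis anterior samples, and the difference of -0.21 ± 0.12 did not pass (adjusted p = 0.502). Its 95% interval, as a ratio of masseter to tibialis anterior, ran from 0.717 to 1.04. This probe set too was among the brightest of the arrays. The dimmer Tpm1 probe sets had mean signals from 84.1 to 223 and went opposite ways. The brighter of them differed by -0.77 ± 0.34 (adjusted p = 0.396) and the dimmer by 0.25 ± 0.23 (adjusted p = 0.714). Masseter 1, with 74.5 on the former, was its lowest array, and the third numbered pair had the opposite sign there, at 0.05.

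Tpm2 encodes beta-tropomyosin, and all 4 of its probe sets had positive differences, from 0.01 to 0.38. The brightest, of a class that may also bind related transcripts (suffix x_at), had signals of 7761, 10259 and 9277 in masseter 1, 2 and 3. In tibialis anterior 1, 2 and 3 they were 7600, 9703 and 9118, so the groups overlapped (0.05 ± 0.11, adjusted p = 0.908). The masseter to tibialis anterior ratio had a 95% interval from 0.87 to 1.22. The sign of that small difference turned without masseter 2 (-0.05) and without tibialis anterior 1 (-0.06), both with no block. The dimmest Tpm2 probe set had signals of 2407, 2614 and 1992 against 1491, 2165 and 1770. Its difference of 0.38 ± 0.15 was the greatest positive value among the 18 probe sets (unadjusted p = 0.0304 and adjusted p = 0.311).

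Tpm3 encodes the slow-fibre alpha-tropomyosin and also forms found outside muscle. Its brightest probe set had signals of 356, 252 and 282 in masseter 1, 2 and 3 and of 357, 282 and 332 in tibialis anterior 1, 2 and 3. The groups overlapped, with a difference of -0.13 ± 0.16 (adjusted p = 0.791) and a 95% interval of the ratio from 0.708 to 1.17. The other 4 probe sets of Tpm3 had differences from -0.35 to 0.15, and their adjusted p-values ran from 0.551 to 0.997. In the x_at probe set of Tpm3 the samples numbered 3 stood highest in each muscle, at 341 for masseter and 337 for tibialis anterior.

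The tropomodulins cap the pointed end of the filament. Tmod4, the skeletal muscle form, had signals of 3301, 3294 and 3559 in masseter 1, 2 and 3 and of 4019, 4361 and 3375 in tibialis anterior 1, 2 and 3. Tibialis anterior 3 fell among the masseter samples, and the difference of -0.20 ± 0.14 did not pass (adjusted p = 0.593). Tmod1, which is also found in heart and red blood cells, had signals of 931, 753 and 1446 for masseter and of 857, 811 and 1047 for tibialis anterior. The masseter samples spread more widely (SD on the log2 scale 0.48 against 0.19) and their range held all 3 tibialis anterior samples, and the difference was 0.16 ± 0.16 (adjusted p = 0.74). It was -0.10 when masseter 3 was left out with no block. The 95% intervals of the ratios ran from 0.7 to 1.08 for Tmod4 and from 0.872 to 1.43 for Tmod1.

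Whether related genes differed from each other in their response was examined for 6 pairs, by the log2 ratio of their brightest probe sets within each array. The level of such a ratio depends on the probes, so its change between muscles is given. With 3 arrays against 3 the smallest exact permutation p is 0.1. The Actc1 to Acta1 ratio was lower in the masseter by -1.47 on the log2 scale, with SDs of 0.37 for masseter and 0.14 for tibialis anterior (n = 3 each). Its groups did not overlap (two-sided exact permutation p = 0.1, and 0.3 adjusted over the 6 pairs). The Tpm2 to Tpm1 ratio was higher in the masseter by 0.26 without overlap, with the same exact permutation p = 0.1 and adjusted value of 0.3. This change was 0.12 without tibialis anterior 1, 0.11 with quantile normalization and 0.41 with the mean over the probe sets of each gene. The Actn3 to Actn2 ratio was lower by -0.89 with overlapping groups (exact permutation p = 0.2). Without tibialis anterior 3 it was -1.34 and the groups no longer overlapped, and the exact permutation p was then 0.1, the smallest that 3 arrays against 2 allow. The ratios of Tpm3 to Tpm1, Tpm3 to Tpm2 and Tmod1 to Tmod4 differed by 0.08, -0.18 and 0.36, with overlapping groups and exact permutation p-values of 0.9, 0.7 and 0.4. None of the 6 ratios could pass the threshold in this design.

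**Figure D3:**
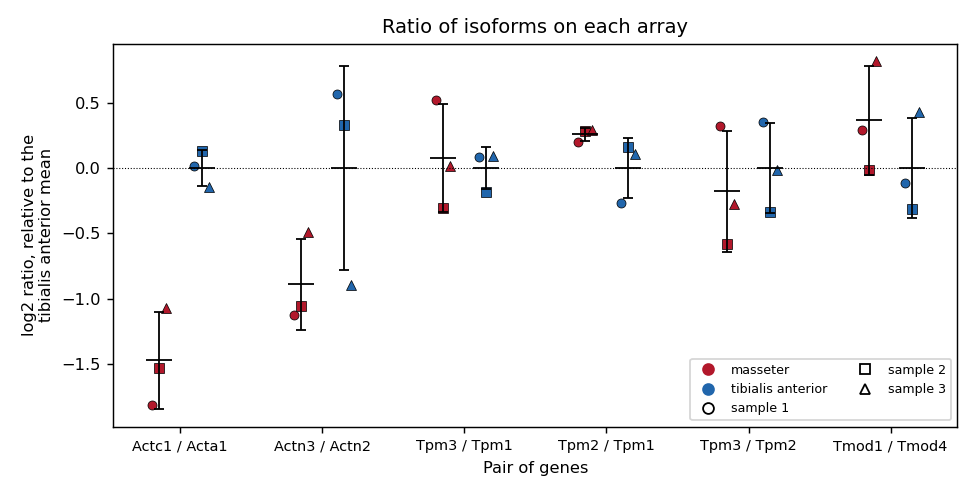
Log2 ratio of the signals of 2 related genes on each array, drawn relative to the tibialis anterior mean, with group means and ±1 SD (n = 3). The Actc1 to Acta1 and Tpm2 to Tpm1 ratios separate the muscles, and for Actn3 to Actn2 tibialis anterior 3 lies among the masseter samples.

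Other genes of the thin filament and Z-disc were examined by list, each gene by its brightest probe set. Over all 8316 genes so represented 1.37% were past the threshold. Of the genes for filament capping and assembly, 15 were measured, of which 1 was less abundant in masseter, 0 were more abundant and 14 did not pass. The background over all genes was 0.661% less abundant and 0.709% more abundant. The 1 gene was Nrap, an actin-binding protein of myofibril assembly, with signals of 1301, 1644 and 1507 in masseter 1, 2 and 3 and of 2768, 2486 and 3387 in tibialis anterior 1, 2 and 3. The groups did not overlap, with a difference of -0.95 ± 0.15 (adjusted p = 0.0266). That call held in 8 of 18 alternatives. It ended without replicate 3 (adjusted p = 0.076). With no block and 1 array left out, it ended for each masseter sample (adjusted p = 0.073, 0.075 and 0.0685) and for tibialis anterior 1 and 3 (adjusted p = 0.0761 and 0.0868). It also ended with eBayes without an intensity trend (adjusted p = 0.269) and in paired SAM (adjusted p = 0.181). The same held with the salivary covariate and no block (adjusted p = 0.108) and when arrays were scaled to fibre genes (adjusted p = 0.0982). Lmod2, a leiomodin that nucleates actin and lengthens filaments at the pointed end, had signals of 1203, 2382 and 2051 for masseter and of 513, 1496 and 1458 for tibialis anterior. Its groups overlapped although each numbered pair was higher in the masseter (0.80 ± 0.17, adjusted p = 0.0758). Without the block its adjusted p was 0.467. Pfn2, a profilin that binds actin monomers, and Cfl2, the muscle cofilin that severs filaments, differed by -0.32 ± 0.12 and 0.16 ± 0.14 (adjusted p = 0.284 and 0.7). The median difference of the list was 0.08.

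Of 15 measured Z-disc partners of alpha-actinin, 1 was higher in the masseter, 1 was lower and 13 did not pass, with a median of -0.01. Pdlim1, a PDZ and LIM protein that binds alpha-actinin, had signals of 1087, 1102 and 922 in masseter 1, 2 and 3 and of 470, 321 and 416 in tibialis anterior 1, 2 and 3. The masseter was higher in every sample, by 1.38 ± 0.17 (adjusted p = 0.00983), a 2.6-fold difference. The call held in 16 of 18 alternatives and ended with eBayes without an intensity trend (adjusted p = 0.184) and in paired SAM (adjusted p = 0.116). Pdlim3, the actinin-associated LIM protein, had signals of 1629, 1669 and 2301 against 3337, 2692 and 4021. It was lower in the masseter without overlap, by -0.84 ± 0.13 (adjusted p = 0.0254). The Pdlim3 call held in 6 of 18 alternatives. It ended with eBayes without an intensity trend (adjusted p = 0.27) and in paired SAM (adjusted p = 0.165). Without the block (adjusted p = 0.0755) and without replicate 3 (adjusted p = 0.0528) it also ended. So it did in each of the 6 fits that leave out 1 array with no block (adjusted p from 0.0643 to 0.248). The salivary covariate with no block (adjusted p = 0.244) and scaling to fibre genes (adjusted p = 0.0819) ended it too. Myot, myotilin, and Ldb3, a PDZ-LIM protein of the Z-disc, were the brightest of the list and differed by 0.16 ± 0.12 and -0.25 ± 0.12 (adjusted p = 0.643 and 0.409).

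**Figure D4:**
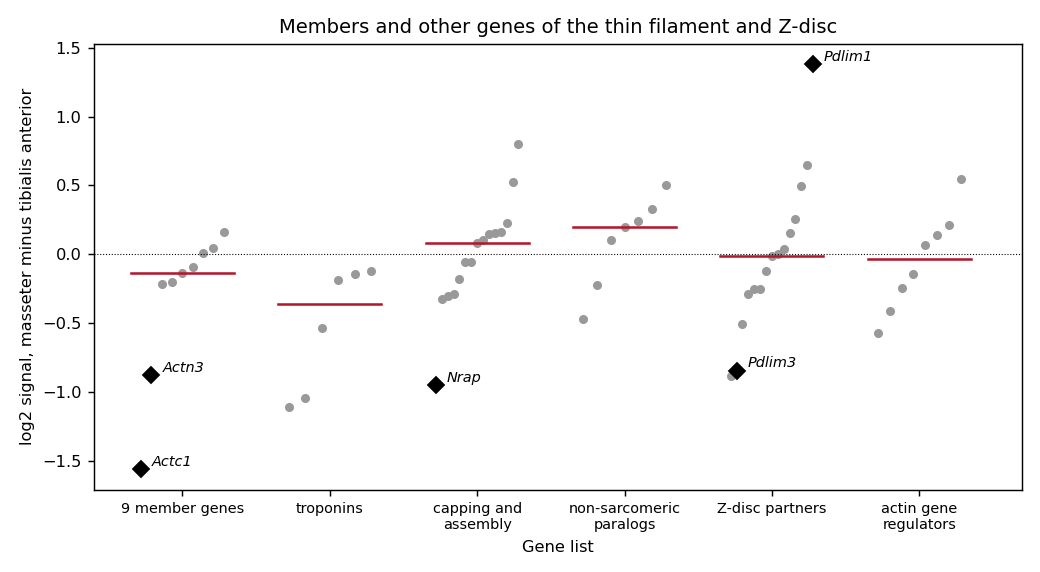
Log2 difference, masseter minus tibialis anterior, of the 9 member genes and of 5 lists of other genes, each gene by its brightest probe set (points), with the median of each list (red lines). Black diamonds with names are genes past the threshold, which are Actc1 and Actn3 among the members and Nrap, Pdlim1 and Pdlim3 in the lists.

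The troponins, which move tropomyosin on calcium binding, had 6 measured genes of 8, and 0 were past the threshold by limma in either direction. Their summed signal was 39775 to 45894 for masseter and 48105 to 49350 for tibialis anterior, without overlap. The sums of the other thin-filament and Z-disc lists overlapped. At an unadjusted p under 0.05, where 546 of all 8316 genes were lower and 611 higher, there were 1 lower and 0 higher. The lower gene was Tnnc1, troponin C of slow and cardiac muscle, named after its values were seen. Its mean signals were 103 and 213 (-1.05 ± 0.22, adjusted p = 0.0749). Their median difference was -0.36. The fast forms Tnnt3 and Tnni2 differed by -0.18 ± 0.10 and -0.12 ± 0.12 (adjusted p = 0.518 and 0.74). The slow form Tnnt1 had mean signals of 55.7 for masseter and 80.8 for tibialis anterior (-0.54 ± 0.35, adjusted p = 0.585). The slow form Tnni1 had 21.8 and 47, the former under the filter level of 28.6 (adjusted p = 0.519). Of the 7 non-sarcomeric actins, tropomyosins and actinins, 0 were past the threshold by limma, with 1 lower and 1 higher at an unadjusted p under 0.05 and a median of 0.20. Those with a p under 0.05 were Actg1 and Acta2, both read by probe sets that may bind related transcripts (suffix s_at). Actg1, cytoplasmic gamma-actin, had the greatest positive difference of them, with 3143, 2370 and 2759 for masseter and 2248, 1531 and 2088 for tibialis anterior. Its groups did not overlap, but it did not pass (0.51 ± 0.13, adjusted p = 0.118). Acta2, smooth muscle actin, had mean signals of 1337 and 1850 (-0.47 ± 0.18, adjusted p = 0.307). Actb, cytoplasmic beta-actin, differed by 0.24 ± 0.15 (adjusted p = 0.568). Tpm4, Actn1 and Actn4, forms outside the sarcomere, had adjusted p-values of 0.79, 0.853 and 0.618. Of 8 measured regulators of actin genes, 0 were past the threshold by limma, with 1 lower and 0 higher at an unadjusted p under 0.05 and a median of -0.03. Srf, the gene of serum response factor, named after its values were seen, had mean signals of 184 and 159 (0.21 ± 0.17, adjusted p = 0.671). Its groups did not overlap, with masseter at 181 to 186 and tibialis anterior at 151 to 163, but it did not pass. The brightest, the Mef2 transcription factor genes Mef2c and Mef2a, differed by -0.14 ± 0.12 and -0.57 ± 0.17 (adjusted p = 0.69 and 0.189).

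The genes whose pattern lay nearest to Actc1 and Actn3 were sought among 8307 other genes. The measure was the root mean square distance between log2 signals, each centred on its mean over the 6 arrays. A gene that separates the muscles by a like amount is near by this measure, so it is a description. Nearest to Actc1 was Myh4, the fast IIB myosin heavy chain, at a distance of 0.2. It had signals of 5649, 7072 and 8100 in masseter 1, 2 and 3 and of 20228, 17513 and 19398 in tibialis anterior 1, 2 and 3 (-1.47 ± 0.14, adjusted p = 0.00265). As with Actc1 and Actn3, masseter 1 was lowest and masseter 3 highest of the masseter samples. Next to Actc1 came Stbd1, a glycogen-binding protein, at 0.26 (-1.96 ± 0.21, adjusted p = 0.00498) and Stxbp4 at 0.271 (-1.18 ± 0.31, adjusted p = 0.143). Nearest to Actn3 were Ldha, the muscle form of lactate dehydrogenase, at 0.115, Smad7, an inhibitor of TGF-beta signalling, at 0.123 and Gstm2, a glutathione transferase, at 0.124. None of these 3 passed by limma (adjusted p = 0.0941, 0.22 and 0.149), each with an unadjusted p under 0.05.

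**Figure D5:**
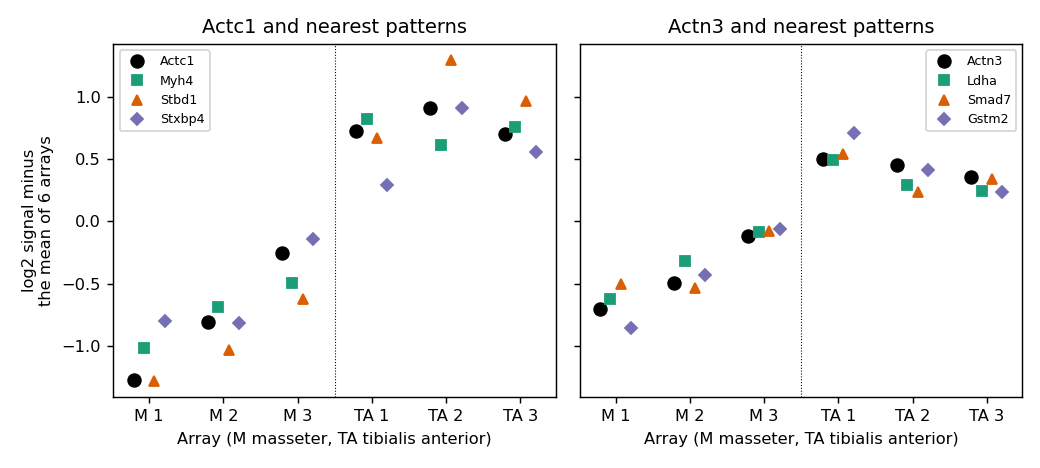
Log2 signal of Actc1 (left) and Actn3 (right) and of the 3 genes nearest to each in pattern, centred on the mean of each gene over the 6 arrays (M masseter, TA tibialis anterior, numbered as in the titles). All masseter points lie below the tibialis anterior points of the same gene, with masseter 3 the closest to them.

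Other features of the samples were set beside these results, and some of them also differed between the muscles. The slow-fibre list (9 measured genes) had a summed signal of 1663 to 2094 for masseter and of 4642 to 8229 for tibialis anterior. Without Myl3 it summed to 1582 to 2050 and to 2220 to 3960, still without overlap. Myl3 and Myl2, the slow myosin light chains, were lower past the threshold (adjusted p = 7.64e-05 and 0.00114). The masseter mean of Myl2 was 25.9, under the filter level of 28.6. That gene was kept through its tibialis anterior signals, with a mean of 377. The other 7 genes of the list did not pass the test, and the list median was -1.04. At an unadjusted p under 0.05 there were 5 lower and 0 higher. The background at that level, for each marker list here, was 546 lower and 611 higher among all 8316 genes. Atp2a2 and Casq2 of this list were not lower, with differences of 0.23 and 0.0006 (adjusted p = 0.593 and 0.999). Myh7, the slow myosin heavy chain, had mean signals of 19.9, under the filter level, and 96.9 (adjusted p = 0.0671). The fast-fibre list (11 genes) had 1 gene lower, Myh4, and 10 that did not pass, with a median of -0.15. It summed to 126890 to 153560 and to 164040 to 165680, and without Myh4 the sums overlapped, at 121240 to 145460 and 143820 to 147340. Actc1 is also the actin of the heart. Of 8 other heart muscle markers 6 had a mean over the 6 arrays under the filter level, among them Myh6, Nppa, Tnni3 and Myl7. Another of them was Tnnt2, cardiac troponin T, which is also made in immature skeletal muscle. Its signals were 13, 19.7 and 18.6 for the masseter samples, against 39.2, 73.6 and 30.9 for tibialis anterior. These groups did not overlap, with the masseter lower as for Actc1, and the filter kept the gene out of the test. Nppb, also under the filter level, went the other way without overlap. Its signals were 34, 32.9 and 37.5 for the masseter samples, against 9, 5.7 and 7 for tibialis anterior. The 2 heart markers that passed the filter summed to 66.1 to 105 for masseter and to 49.9 to 74.2 for tibialis anterior. The list of regenerating or immature fibres, where Actc1 is also known, summed to 4205 to 7706 for masseter and to 1312 to 1676 for tibialis anterior. Without Myh8 it summed to 752 to 1329 and to 1207 to 1608, with overlap. Of its 9 measured genes 1 was higher, Myh8, the perinatal myosin heavy chain (5.57 ± 0.27, adjusted p = 7.64e-05), and 0 were lower, with a list median of -0.50. At an unadjusted p under 0.05 there were 4 lower (Myh3, Ncam1, Chrna1 and Myl4) and 1 higher. The smooth muscle and pericyte list had 0 of 9 genes past the threshold by limma. At an unadjusted p under 0.05, 2 were lower (Acta2 and Rgs5) and 1 was higher (Smtn). The list summed to 4542 to 5377 and to 6014 to 7586. Without Acta2 it summed to 3259.6 to 4068.5 and to 4124 to 5191.2, still without overlap.

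Most genes of salivary gland stood high in masseter 1, where the 6 measured genes of the list summed to 43801, against 4740 and 3089 in masseter 2 and 3 and 2338 to 4365 in the tibialis anterior. Pip, Smr3a and Chia1 of that list were past the threshold (adjusted p = 0.0113, 0.0266 and 0.00455) with overlapping groups. Those 3 calls ended without the block (adjusted p = 0.302, 0.529 and 0.345). Smr2 of the same list went the other way, with its lowest signal, 1010, in masseter 1 and 1849 to 2548 in tibialis anterior (-0.64 ± 0.25, adjusted p = 0.327). Prol1 lay under the filter level. Masseter 1 was also the sample with the lowest Actc1 and Actn3. Without replicate 1 the differences were -1.34 for Actc1 (adjusted p = 0.0178) and -0.71 for Actn3 (adjusted p = 0.0491). With the salivary level of each array as a covariate and no block, they were -1.22 (adjusted p = 0.0507) and -0.71 (adjusted p = 0.116). The 10 genes fixed as markers of skeletal muscle fibres were all measured, and their summed signal was 79015, 94630 and 102530 in masseter 1, 2 and 3 and 102950 to 106920 in the tibialis anterior. Without Myh4, the 1 gene of that list past the threshold, the sums overlapped, at 73366 to 94430 and 82724 to 89405. The mean log2 signal of the 7 genes that are not myosins differed by -0.11 (exact permutation p = 0.5, n = 3). Scaled to these 7 genes, the differences were -1.45 for Actc1 (adjusted p = 0.0198) and -0.77 for Actn3 (adjusted p = 0.0496), while the median of all probe sets rose from 0.02 to 0.13. The adipocyte list (3 measured genes) summed to 4141 to 5926 and to 2985 to 4990, with Adipoq, adiponectin, past the threshold (1.26 ± 0.17, adjusted p = 0.0167). That call ended without the block (adjusted p = 0.228) and in each fit that left out 1 array with no block (adjusted p from 0.171 to 0.458). The lists of fibroblasts and tendon (8 genes) and endothelium (6 genes) had 0 past the threshold by limma. At an unadjusted p under 0.05 the former had 1 lower (Col1a1) and 1 higher (Pdgfra) and the latter 0. Control probe sets at either end of Gapdh measure RNA integrity and amplification. Their 3′ over 5′ ratio was 2.66 ± 0.23 for masseter and 1.94 ± 0.11 for tibialis anterior (SD, n = 3, exact permutation p = 0.1). Its groups did not overlap, at 2.46 to 2.92 against 1.87 to 2.07, and 0.1 is the smallest exact permutation p possible. Those of Actb gave 2.96 ± 0.34 and 2.70 ± 0.11 with overlapping groups (SD, n = 3, exact permutation p = 0.3). The part of these other cell types and control ratios in the results was not tested beyond the values given.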

How the data were processed

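The values deposited by the authors are linear signal intensities, 1 for each probe set of an array. MAS5 and GCOS are named in the submitters' processing notes, with no settings. The 2% trimmed mean was 150.1 on every array, so no further scaling was applied. The number of arrays limits the precision.

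Gene symbols came from the platform annotation. Of 22690 probe sets, 64 were controls, 20380 had 1 symbol, 691 several and 1555 none, and matching gene identifiers to the RefSeq table changed 0 symbols. Signals were floored at 1 before log2. Without the controls, probe sets were kept at or above the 40th percentile of mean log2 signal (4.84, a signal of 28.6). The fit used limma 3.58.1 in R 4.3.3 (lmFit, and eBayes with trend) and two-sided p-values, with the title numbers as a fixed block because the design text of the series describes paired comparisons. The procedure was tested on simulated data. The probe set with the highest mean stood for its gene. "At an unadjusted p" refers to the same fit.

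The members, lists and tests were chosen with earlier results of these data known. Genes outside the members were named by a rule, except single genes behind small counts or standing apart. The exceptions were named after their values were seen. They were Tnnc1, Tnnt2, Nppb, Srf, Csrp3, Flnc, Smr2, Atp2a2, Casq2 and marker genes given by name alone. The rule took up to 4 of each list past the threshold, the 2 brightest of each thin-filament or Z-disc list, 11 genes always named (of which Lmod3 had no probe set by symbol here) and the 3 nearest patterns of each called member. The brightest genes of the marker lists, which the rule also takes, are given only within list sums. Alternatives were no block, eBayes without trend, paired SAM by 8 sign flips, no filter or the 60th percentile, quantile normalization, an offset of 16 before log2, leaving out each pair or array, the salivary level as covariate and the mean over probe sets. Scaling to fibre genes and list sums without 1 gene were chosen after seeing the data.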

Additional observations from a re-analysis of the deposited data

How the results depend on the processing

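Of all probe sets, 160 passed by the analysis reported, 138 with no replicate block, 13 with eBayes without trend, 51 in paired SAM and 65 with the salivary covariate and no replicate block. Leaving out a pair or an array gave 45 to 173. The member count of 2 fell to 0 with eBayes without trend (2 at an unadjusted p under 0.05), to 0 in paired SAM, to 1 without the filter and to 0 with the salivary covariate (2 at an unadjusted p under 0.05), and ran from 0 to 2 when a pair or array was left out. It stayed at 2 with no replicate block. Over the 5 lists of other thin-filament and Z-disc genes the count of 3 became 0 with eBayes without trend and 0 in paired SAM, 1 with the salivary covariate, 1 when scaled to fibre genes and 5 with the mean over probe sets, and ran from 1 to 4 when a pair or array was left out.

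No member call turned its direction in any alternative. Signs turned for several differences that did not pass. These were Acta1 with quantile normalization (0.0083), the salivary covariate (0.035) and fibre scaling (0.018). When a pair or array was left out, values ran from -0.057 to 0.16 for Tpm2, from -0.24 to 0.46 for Actn2 and from -0.10 to 0.37 for Tmod1. Among other genes they ran from -0.18 to 0.0024 for Tnni2, from -0.26 to 0.0024 for Mef2c, from -0.064 to 0.54 for Tpm4, from -0.0068 to 0.19 for Actn1 and from -0.017 to 0.56 for Actn4. The log2 ratio of Tpm3 to Tpm1 turned to -0.10 with quantile normalization and ran from -0.14 to 0.27 when an array was left out, and that of Tpm3 to Tpm2 from -0.43 to 0.023. Smr3a, past the threshold as reported, turned to -0.51 with the salivary covariate. The cause of these changes was not tested.

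The numbers in the titles were checked as pairs by correlating deviations from the group means over all kept probe sets. Same-numbered samples gave 0.0392, 0.152 and 0.101, and masseter 1 correlated best with tibialis anterior 2 (0.0412), so these data do not settle that a number marks a pair. Very bright signals limit what can be said of Acta1, Tpm1, Actn3, Tnnt3 and Tnni2, and low signals of the slow troponins Tnnt1 and Tnni1.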
